A study of Mus musculus with 24 samples.

Results

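The miR-23/24/27 clusters are a pair of neighboring groups of miRNA genes that sit on different mouse chromosomes and yield closely related miRNAs. The 5 entries of the count table that carry their names, mir-23a, mir-27a, mir-23b, mir-27b and mir-24, were followed in all 24 libraries, out of 510 miRNA entries in the table. All 5 passed the filter on low counts, as did 237 miRNAs in all. One cluster gives miR-23a and miR-27a, the other gives miR-23b and miR-27b, and both contain a copy of miR-24. The mir-24 entry does not tell the copies apart.

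The tumor libraries came from PyMT mice. These are FVB females heterozygous for a transgene with the polyoma middle T oncogene under the MMTV promoter. This promoter is active mainly in mammary epithelium, so the transgene drives tumors of that epithelium. Primary mammary tumors were taken at weeks 6 (hyperplasia), 8 (adenoma or mammary intraepithelial neoplasia), 10 (early carcinoma) and 12 (late carcinoma). Normal mammary glands were taken from homozygous FVB females of the same ages, which served as the controls and were not PyMT mice. Each of the 8 groups had 3 libraries, each from a mouse of its own. Tumor and normal tissue were collected whole, so in these bulk samples fewer cells of a type and less miRNA per cell cannot be told apart. By the pathology in the paper, the hyperplasia and adenoma tissues held normal gland cells too, while the carcinoma samples were mostly tumor cells. The purity of the tumor samples thus differed between stages.

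A miRNA pairs with messenger RNAs mainly through its seed, the stretch near its 5′ end, and lowers their translation or stability. Hairpins that lie close together in a cluster are usually cut from a single primary transcript, and their mature products can then be matured or degraded at different rates. Members of the miR-23 and miR-27 families are known from studies of blood vessel growth and of fat cell differentiation, in which miR-27 restrains the adipogenic regulator Pparg. miR-24 is known from studies of the cell cycle and of apoptosis.

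The mature sequences below show what the 2 clusters have in common and where reads can separate them. They are RefSeq sequences from GRCm38.p6, written 5′ to 3′, with the seed (bases 2 to 8) in capitals. The mature miR-23b-3p is named only.

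mmu-miR-23a-3p: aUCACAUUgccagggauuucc

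mmu-miR-27a-3p: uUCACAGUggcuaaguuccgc

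mmu-miR-27b-3p: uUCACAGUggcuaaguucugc

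mmu-miR-24-3p: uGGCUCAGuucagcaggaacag

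mmu-miR-24-2-5p: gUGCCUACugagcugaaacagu

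mmu-miR-24-1-5p: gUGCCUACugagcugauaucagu

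miR-27a-3p and miR-27b-3p shared their seed and their first 18 bases, and over all 21 bases they differed by C19U (the miR-27a base first, counted from 1 at the 5′ end). Reads of 17 and 18 bases that start at the first base therefore matched both exactly. Longer ones matched 1 exactly and differed from the other by 1 base. The seed of miR-23a-3p differed from that of the miR-27 pair. miR-24-3p was the same 22 bases at both loci, so that counts of mir-24 cannot be divided between the clusters. The opposite strands, miR-24-2-5p and miR-24-1-5p, were identical over their first 16 bases, and the table held no separate entry for either.

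In mm9 (GENCODE vM1), the miR-23a cluster lay on the plus strand of chromosome 8 in a stretch of 404 bases. It ran from Mir23a (86732417 to 86732491) through Mir27a (86732571 to 86732657) to Mir24-2 (86732714 to 86732820). It overlapped no other annotated gene, and the nearest, Zswim4, was 1757 bases from Mir24-2. The miR-23b cluster lay on the plus strand of chromosome 13, in an intron of 2010111I01Rik. Mir23b (63401780 to 63401876) and Mir27b (63402008 to 63402104) were annotated by name. The second copy of miR-24-3p was placed by its exact sequence at 63402559 to 63402580 of the same intron, 801 bases from the start of Mir23b to its own end.

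Normal libraries held 1626022 to 3931375 counts each, and tumor libraries held 1032241 to 2213972. The lowest count of any member in any library was 867, against a floor of 3 counts, so depth did not limit detection. Together the 5 members took 0.900 to 1.19% of the counts in normal glands and 1.53 to 3.26% in tumors, with no overlap. The tumor library of week 8, replicate 2, was the shallowest of all and held the highest level of all 5 members in its group. Muscle miRNAs (mir-1, mir-133a and mir-133b) summed to at most 29085 CPM (counts scaled to library size, after TMM normalization) outside 3 libraries. Those were the normal libraries of week 10 replicate 3, week 6 replicate 1 and week 12 replicate 1, with 45430, 87491 and 89335 CPM.

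Of the 5 members, miR-23b and miR-27b were over-expressed in tumor at every week, and miR-23a and miR-27a were under-expressed at weeks 10 and 12. miR-24 passed the test at no week. The members over-expressed were 2 of 5 at each week, beside 29.1%, 21.9%, 32.9% and 29.1% of all 237 tested miRNAs at weeks 6, 8, 10 and 12. Those under-expressed were 0, 0, 2 and 2 of 5, beside 29.5%, 13.5%, 27.4% and 21.5% of all. At all 4 weeks, 18.6% of the tested miRNAs were over-expressed and 7.59% under-expressed, against 2 and 0 of the 5 members. A call means an adjusted p under 0.05 by the quasi-likelihood test of edgeR, with p-values adjusted by the Benjamini-Hochberg method over all 237 miRNAs, in a fit of that week alone. The median log2 fold change of the 5 members was -0.21, 0.21, 0.03 and 0.23, beside -0.12, -0.09, -0.15 and -0.19 over all tested miRNAs. At each week this median of the 5 was the value of miR-24 itself. miR-23b and miR-27b lay above it and miR-23a and miR-27a below, so it does not describe a shift they share.

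**Figure D1:**
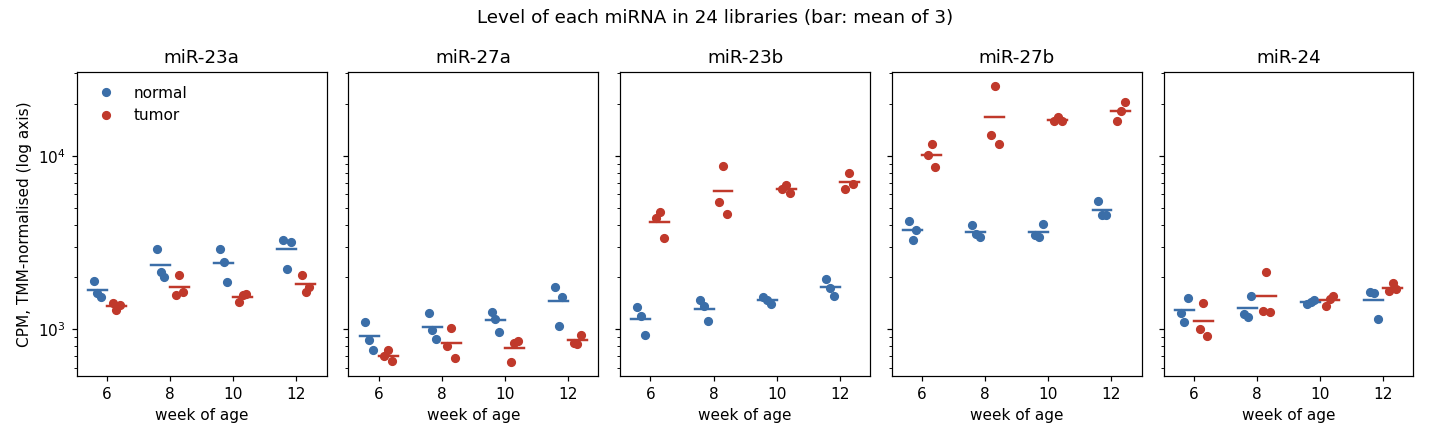
Level of each of the 5 miRNAs in CPM (log axis) against week of age. Each point is a library, blue for normal glands and red for tumors, and bars are group means (n = 3). All tumor libraries lay above all normal libraries for miR-23b and miR-27b, while miR-23a and miR-27a lay mostly lower in tumor and miR-24 overlapped at weeks 6, 8 and 10.

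miR-23b stood at 1343, 1189 and 923 CPM in the normal libraries of week 6 and at 4375, 4754 and 3340 CPM in the tumors. At week 8 the normal libraries held 1468, 1356 and 1117 CPM and the tumors 5393, 8796 and 4642 CPM. The lowest tumor was thus above every normal library of its week. At week 10 the normal libraries held 1539, 1469 and 1400 CPM and the tumors 6439, 6795 and 6116 CPM. At week 12 they held 1954, 1720 and 1562 CPM and the tumors 6457, 7980 and 6892 CPM. The groups did not overlap at any week, and over all weeks the lowest tumor (3340 CPM) exceeded the highest normal gland (1954 CPM). The log2 fold change was 1.85 ± 0.20 (SE, n = 3 per group, edgeR adjusted p = 0.000628) at week 6 and 2.21 ± 0.29 (adjusted p = 0.00200) at week 8. It was 2.12 ± 0.13 (adjusted p = 3.68e-05) at week 10 and 2.02 ± 0.19 (adjusted p = 0.000356) at week 12.

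miR-27b had the highest CPM of the 5 in every group. It stood at 4206, 3257 and 3735 CPM in the normal libraries of week 6 and at 10128, 11791 and 8691 CPM in the tumors. At week 8 the normal libraries held 3978, 3554 and 3424 CPM and the tumors 13187, 25489 and 11812 CPM. The spread of the week 8 tumors came from replicate 2. This library was the shallowest and had the lowest TMM factor of the tumors (0.824), and a lower factor gives a higher CPM. The part of depth in its level was not tested. At week 10 the normal libraries held 3489, 3418 and 4073 CPM and the tumors 15847, 16878 and 15913 CPM. At week 12 they held 5492, 4563 and 4562 CPM and the tumors 15885, 18155 and 20534 CPM. Tumor and normal libraries were again separate at each week. In the order of the weeks, the log2 fold change was 1.45 ± 0.17, 2.16 ± 0.33, 2.14 ± 0.12 and 1.89 ± 0.21 (SE, n = 3 per group), with edgeR adjusted p-values of 0.000749, 0.00327, 3.68e-05 and 0.000477. Without the tumor replicate 2, the week 8 value was 1.78 ± 0.18 (adjusted p = 0.00126), and that of miR-23b was 1.93 ± 0.21 (adjusted p = 0.00173). Over all 14 alternatives and left-out libraries, miR-23b and miR-27b remained over-expressed at every week.

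miR-23a, the partner of miR-27a on chromosome 8, stood at 1904, 1619 and 1534 CPM in the normal libraries of week 6 and at 1418, 1288 and 1385 CPM in the tumors. At week 8 it stood at 2895, 2140 and 1996 CPM in normal glands and at 1577, 2056 and 1633 CPM in tumors. The groups were separate at week 6 and overlapped at week 8. At week 10 the normal libraries held 2922, 2446 and 1874 CPM and the tumors 1434, 1573 and 1589 CPM. At week 12 they held 3275, 2235 and 3195 CPM and the tumors 2052, 1631 and 1753 CPM. Every tumor of weeks 10 and 12 was below every normal gland of its week. The log2 fold change was -0.30 ± 0.15, -0.46 ± 0.25, -0.67 ± 0.19 and -0.70 ± 0.24 (SE, n = 3 per group), and edgeR's adjusted p was 0.122, 0.169, 0.0193 and 0.0418 at weeks 6, 8, 10 and 12.

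miR-27a had the lowest mean CPM of the 5 in every group. It stood at 760 to 1099 CPM in normal glands and 653 to 756 CPM in tumors at week 6. At week 8 it stood at 1247, 988 and 874 CPM in normal glands and at 799, 1019 and 681 CPM in tumors, which overlapped. At week 10 the normal libraries held 1264, 1141 and 966 CPM and the tumors 646, 826 and 860 CPM. At week 12 they held 1763, 1042 and 1537 CPM and the tumors 834, 819 and 928 CPM. As for miR-23a, the tumors of weeks 6, 10 and 12 lay below the normal glands. The log2 fold change was -0.37 ± 0.19, -0.36 ± 0.27, -0.55 ± 0.18 and -0.77 ± 0.26 (SE, n = 3 per group), with edgeR adjusted p-values of 0.131, 0.302, 0.0312 and 0.0389.

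The calls of miR-23a and miR-27a were close to the threshold and were lost in several fits with a library left out, while the fold changes stayed below 0. At week 10, miR-23a had a log2 fold change of -0.64 without tumor replicate 1 (edgeR adjusted p = 0.0611), -0.69 without tumor replicate 2 (0.0560) and -0.74 without normal replicate 2 (0.0563). miR-27a had -0.44, -0.59 and -0.62 there without tumor replicate 1, 2 or 3 (adjusted p = 0.0971, 0.0729 and 0.0528), and -0.46 and -0.61 without normal replicate 1 or 2 (0.0863 and 0.0765). At week 12, miR-23a had -0.50 and -0.68 without tumor replicate 2 or 3 (adjusted p = 0.157 and 0.118), and -0.60 and -0.62 without normal replicate 1 or 3 (0.0962 and 0.0920). miR-27a had -0.83, -0.60 and -0.83 at week 12 without tumor replicate 1, 2 or 3 (adjusted p = 0.0511, 0.124 and 0.0837), and -0.61 and -0.73 without normal replicate 1 or 3 (0.102 and 0.0792). The week 12 normal replicate 1 was the library with the highest sum of muscle miRNAs (89335 CPM), whereas normal replicate 3 of that week held 707 CPM. The part of muscle tissue in these calls was not tested. With the sequencing lane as a covariate, the week 12 values were -0.70 (adjusted p = 0.0509) and -0.75 (adjusted p = 0.0565). Other fits kept the calls. Without normal replicate 2, the week 12 values were -0.88 and -0.99 (edgeR adjusted p = 0.00817 and 0.00416). In a single fit of all 24 libraries they were -0.68 and -0.75 (0.00457 for each). At week 10 that fit gave -0.66 and -0.53 (0.00646 and 0.0369). Over all tested miRNAs, those under-expressed at week 10 fell from 65 to 39 and 37 without tumor replicate 1 or 2.

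miR-24 stood at 1106 to 1510 CPM in normal glands and 913 to 1407 CPM in tumors at week 6, and at 1180 to 1563 CPM and 1264 to 2143 CPM at week 8. At week 10 it stood at 1395 to 1472 CPM in normal glands and 1356 to 1562 CPM in tumors. The groups overlapped at these weeks. At week 12 the normal libraries held 1645, 1619 and 1152 CPM and the tumors 1655, 1847 and 1698 CPM, so that the tumors lay just above. The log2 fold change was -0.21 ± 0.22, 0.21 ± 0.27, 0.03 ± 0.12 and 0.23 ± 0.20 (SE, n = 3 per group), with edgeR adjusted p-values of 0.405, 0.544, 0.856 and 0.356 at weeks 6, 8, 10 and 12. Its sign turned with the left-out library at weeks 6, 8 and 10. A miss of the threshold at these errors does not show that the levels were equal.

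Counted by libraries that do not overlap, 2 of the 5 members lay above normal at weeks 6, 8 and 10 and 3 at week 12, beside 34.2%, 32.1%, 36.3% and 33.3% of all tested miRNAs. Below normal lay 2, 0, 2 and 2 of the 5, beside 34.6%, 19.8%, 31.6% and 28.7%.

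**Figure D2:**
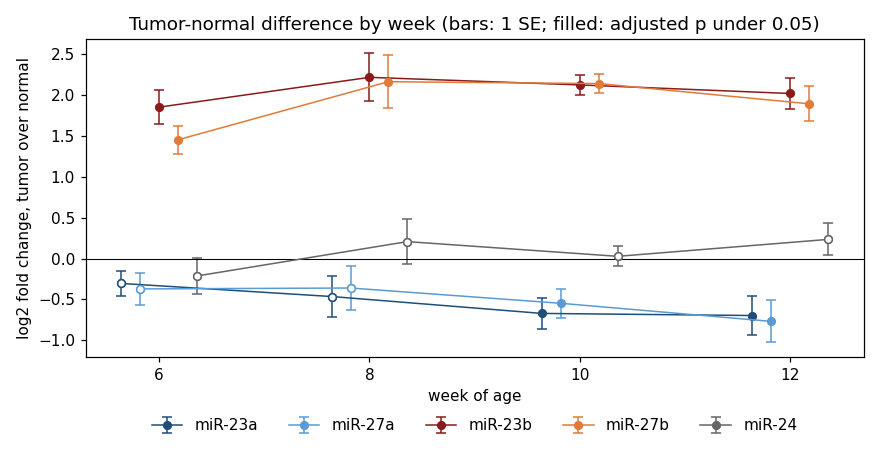
Log2 fold change of tumor over normal (vertical axis) against week of age for the 5 miRNAs. Bars are 1 SE and filled points passed an adjusted p of 0.05. miR-23b and miR-27b lay between 1.45 and 2.21, miR-24 lay between -0.21 and 0.23, and miR-23a and miR-27a lay between -0.30 and -0.77.

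Whether the tumor-normal difference varied between weeks was tested with the interaction term of a fit of all 24 libraries. None of the 5 members passed (edgeR adjusted p between 0.938 and 0.966), and 0% of the 237 tested miRNAs did. At an unadjusted p under 0.05, 9 of the 237 miRNAs and 0 of the 5 members passed, and the lowest unadjusted p of a member was 0.0827, for miR-27b. With 3 libraries a group, no variation of the tumor-normal difference between weeks was resolved.

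A change from week 6 to week 12 was tested within each condition. In tumors these weeks run from hyperplasia to late carcinoma, so age and stage cannot be told apart there. In tumors, miR-23b was 0.77 ± 0.20 higher on the log2 scale at week 12 than at week 6 (SE, n = 3 per group, edgeR adjusted p = 0.0326), and miR-27b was 0.83 ± 0.21 higher (adjusted p = 0.0322). These 2 of 5 members stand beside 4.22% of all tested miRNAs that rose, 3.38% that fell and 7.59% that changed. The log2 change was 0.65 ± 0.21 for miR-24 (adjusted p = 0.0625), 0.41 ± 0.19 for miR-23a (adjusted p = 0.171) and 0.29 ± 0.21 for miR-27a (adjusted p = 0.370). The calls of miR-23b and miR-27b were lost without tumor replicate 1 of each group, with log2 changes of 0.97 and 1.01 (edgeR adjusted p = 0.122 and 0.117). They were also lost without tumor replicate 3, at 0.73 and 0.70 (both 0.241), and without normal replicate 2, at 0.82 and 0.88 (0.0606 and 0.0511). miR-23b lost its call without tumor replicate 2 as well, at 0.87 (0.0563). The count over all tested miRNAs fell in the same fits, from 18 to 0, 0, 3 and 10.

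In normal glands, miR-23a rose by 0.78 ± 0.19 on the log2 scale from week 6 to week 12 (SE, n = 3 per group, edgeR adjusted p = 0.00576), miR-27a by 0.67 ± 0.21 (adjusted p = 0.0239) and miR-23b by 0.60 ± 0.20 (adjusted p = 0.0382). These 3 of 5 stand beside 5.49% of all tested miRNAs that rose, 15.6% that fell and 21.1% that changed. The log2 change was 0.38 ± 0.21 for miR-27b (adjusted p = 0.224) and 0.19 ± 0.21 for miR-24 (adjusted p = 0.584). With library sizes in place of TMM, none of the 3 passed: the changes were 0.47, 0.35 and 0.31 (adjusted p = 0.0634, 0.158 and 0.246), and that scaling moved the median of all miRNAs from 0.06 to -0.23. Without normal replicate 3 of each group, the log2 change was 0.68 for miR-23a (adjusted p = 0.0842) and 0.54 for miR-27a (0.237), and the count over all tested miRNAs fell from 50 to 20. miR-27a also lost its call, at 0.64, without tumor replicate 1 (0.0974), 2 (0.0815) or 3 (0.0674). miR-23b lost its call whichever of the 6 replicates was left out (0.57 to 0.70, adjusted p = 0.0585 to 0.184). The change in tumors minus that in normal glands was 0.17 ± 0.28 for miR-23b, 0.45 ± 0.30 for miR-27b, -0.37 ± 0.26 for miR-23a, -0.38 ± 0.29 for miR-27a and 0.45 ± 0.29 for miR-24. None of the 5 passed (edgeR adjusted p between 0.432 and 0.715), beside 0.422% of all tested miRNAs, which is mir-138 alone, with a lower value in tumors (-2.08 ± 0.43, adjusted p = 0.0239).

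The b and a members of a pair can be compared inside each library, where depth and scaling cancel. The ratio of counts of miR-23b to miR-23a lay between 0.489 and 0.770 in the 12 normal libraries and between 2.41 and 4.89 in the 12 tumors. miR-23a was thus the larger of the pair in every normal gland and miR-23b the larger in every tumor. The ratio of miR-27b to miR-27a lay between 2.76 and 4.91 in normal glands and between 13.3 and 24.99 in tumors, so that miR-27b was the larger throughout. The log2 ratio of miR-23b to miR-23a was 2.56 ± 0.10 higher in tumors (SE over the weekly groups, a factor of 5.89), and that of miR-27b to miR-27a was 2.39 ± 0.10 higher (a factor of 5.23). The exact two-sided permutation test over 160000 regroupings within weeks gave p = 1.25e-05 for each, the smallest it allows, and the same after adjustment over these 2 tests. Neither ratio overlapped between conditions in any of the 24 libraries. It follows that both were higher in tumor in 12 of 12 comparisons of libraries with the same week and number. Full separation was not particular to these pairs. The log2 ratios of miR-27b to miR-23a and of miR-23b to miR-27a (2.41 and 2.54 higher in tumors) separated all libraries as well. So did those of miR-24 to miR-23b and to miR-27b (1.99 and 1.84 lower). Ratios with other miRNAs were not formed.

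By week, the log2 ratio of miR-23b to miR-23a was 2.15, 2.62, 2.77 and 2.69 higher in tumor, and that of miR-27b to miR-27a was 1.81, 2.44, 2.68 and 2.62 higher, at weeks 6, 8, 10 and 12. Each week alone had 3 libraries against 3, for which an exact two-sided test cannot go below 0.1. In the tumors, the miR-27b to miR-27a ratio lay between 13.3 and 15.6 at week 6 and between 19.04 and 22.2 at week 12, without overlap. The miR-23b to miR-23a ratio lay between 2.41 and 3.69 at week 6 and between 3.15 and 4.89 at week 12, and these overlapped. Within lane 1 of the sequencer the differences were 2.62 and 2.58, and within lane 2 they were 2.45 and 2.16. The exact permutation p was 0.0139 for each of the 4, the smallest that the libraries of a lane allow.

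**Figure D3:**
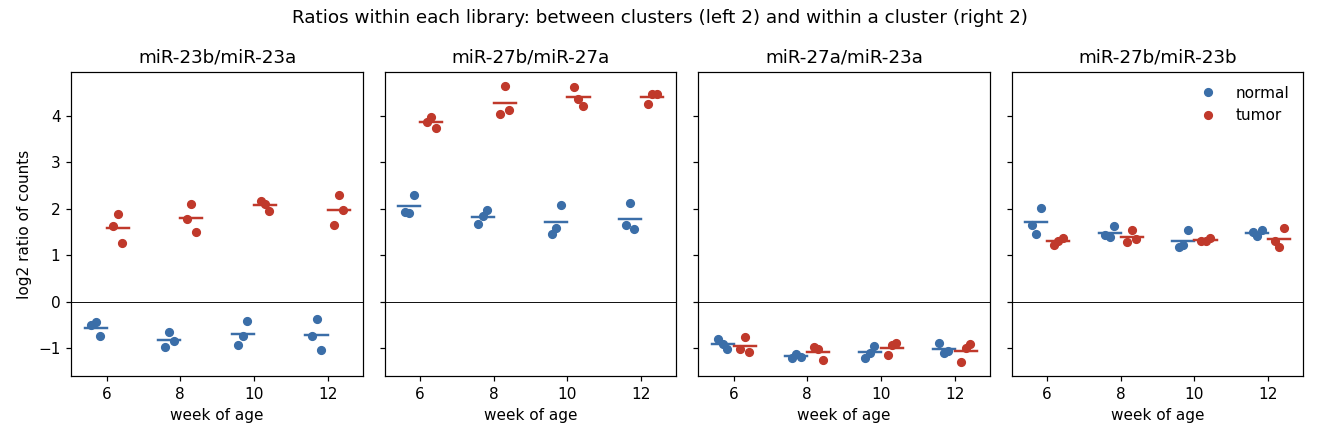
Log2 ratio of counts within each library against week of age, blue for normal glands and red for tumors, with bars at group means (n = 3). The ratios between the clusters (miR-23b/miR-23a and miR-27b/miR-27a) were 2.56 and 2.39 higher in tumor on average, whereas those within a cluster (miR-27a/miR-23a and miR-27b/miR-23b) differed by 0.02 and -0.15.

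Neighbors within a cluster kept a nearly constant proportion. miR-27a stood to miR-23a at a mean log2 ratio of -1.05 in normal glands and -1.03 in tumors, a difference of 0.02, with an SD of 0.14 between replicates of a group. miR-27b stood to miR-23b at 1.495 and 1.34, a difference of -0.15 with an SD of 0.16. The latter was -0.41 at week 6, where tumor and normal libraries did not overlap, and -0.09, 0.02 and -0.13 at weeks 8, 10 and 12, where they did. The SD between replicates was 0.21 to 0.29 for the 4 ratios that cross the clusters.

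miR-24 followed neither cluster. Its log2 ratio to miR-23a was 0.57 higher in tumors and that to miR-27a was 0.55 higher, while its ratio to miR-23b was 1.99 lower and that to miR-27b was 1.84 lower. Relative to miR-23a, the weekly differences were 0.07, 0.62, 0.67 and 0.92, and the libraries were separate at weeks 10 and 12. The SD between replicates of the 4 ratios with miR-24 was 0.20 to 0.35. Since both loci yield the same miR-24-3p, the share of either in these counts is not known.

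**Figure D4:**
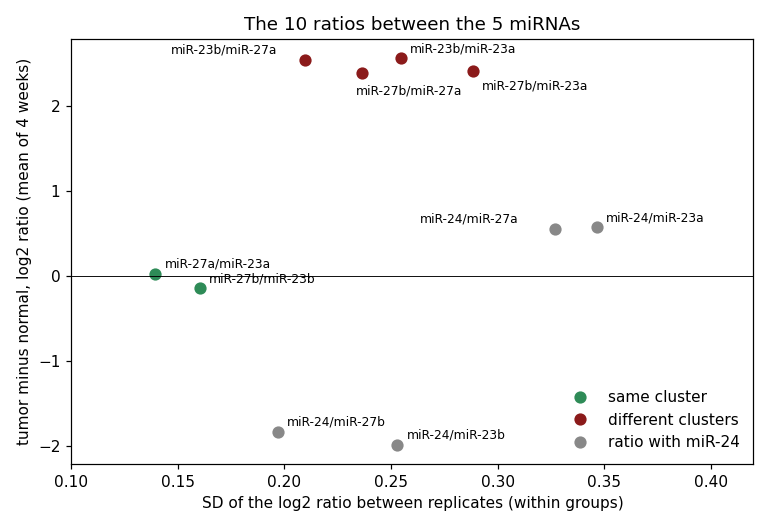
Each point is 1 of the 10 ratios that can be formed from the 5 miRNAs, with the SD of its log2 value between replicates on the horizontal axis and the tumor minus normal difference, averaged over 4 weeks, on the vertical axis. Ratios within a cluster (green) lay nearest 0 and had the lowest SDs (0.14 and 0.16), those between clusters (red) lay at 2.39 to 2.56, and those with miR-24 (grey) lay on both sides of 0.

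In normal glands the order of mean levels was miR-27b, then miR-23a, then miR-24 and miR-23b, which overlapped at all 4 weeks, then miR-27a, which overlapped its next neighbor at weeks 6, 8 and 12. In tumors it was miR-27b, then miR-23b, then miR-23a and miR-24, which overlapped at all 4 weeks, then miR-27a, which overlapped no other member in its week. These CPM are read counts of whole miRNA entries whose mature products have nearly the same length, so no length correction was made. The order is one of read counts, since the amounts of the molecules were not measured. Among the 237 tested miRNAs, miR-27b ranked 30 to 37 in normal libraries and 6 to 20 in tumor libraries. miR-23b ranked 54 to 69 in normal libraries and 23 to 39 in tumors, whereas miR-23a ranked 40 to 55 and 51 to 66. miR-27a ranked 59 to 77 and 68 to 78, and miR-24 ranked 54 to 67 and 51 to 72.

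The 3p arms of miR-27a and miR-27b have the same seed, so the pair was also summed. The entries do not separate the arms, and the 5p arms have other seeds, so the sum is one of whole entries. It was 4641, 4688, 4784 and 6320 CPM on average in normal glands and 10905, 17663, 16990 and 19052 CPM in tumors at weeks 6, 8, 10 and 12, which is 2.35, 3.77, 3.55 and 3.01 times as much. Summed in the same way, miR-23a and miR-23b came to 2837, 3657, 3883 and 4647 CPM in normal glands and 5520, 8032, 7982 and 8921 CPM in tumors, or 1.95, 2.20, 2.06 and 1.92 times as much. miR-23b supplied 32.8 to 43.5% of the miR-23 sum in normal libraries (median 37.6%, n = 12) and 70.7 to 83.0% in tumors (median 79.0%, n = 12). miR-27b supplied 73.4 to 83.1% of the miR-27 sum in normal libraries (median 78.6%, n = 12) and 93.0 to 96.2% in tumors (median 94.9%, n = 12). By the counts of the entries, the larger part of the miR-23 sum was thus miR-23a in normal glands and miR-23b in tumors. That of the miR-27 sum was miR-27b in both. How reads that match both entries of a pair were divided is not known, so the share of each chromosome is not settled.

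**Figure D5:**
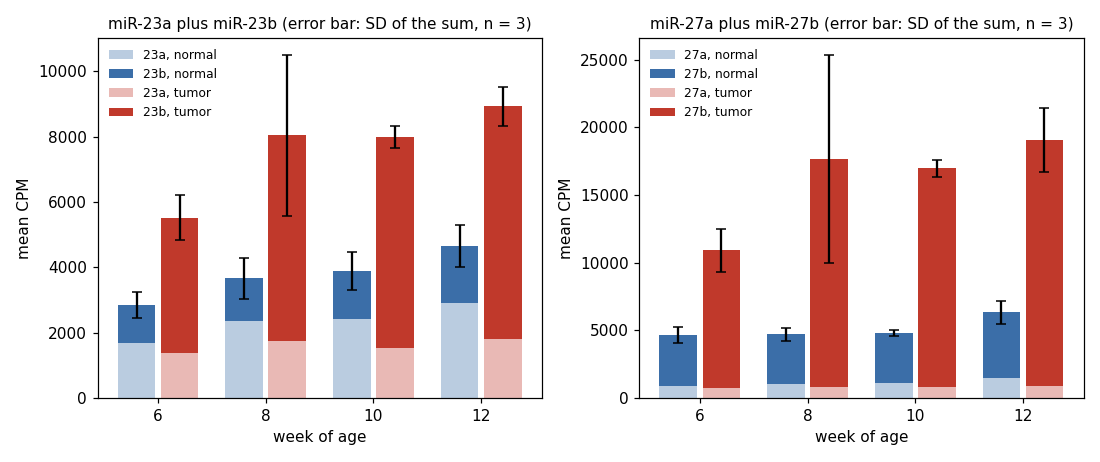
Mean CPM of the a member (pale) and the b member (dark), stacked from 0, for the miR-23 pair (left) and the miR-27 pair (right) against week of age, blue for normal glands and red for tumors. Error bars are the SD of the sum (n = 3). The miR-23 sum was 1.92 to 2.20 times and the miR-27 sum 2.35 to 3.77 times as high in tumor, and the tumor bars are mostly dark.

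The miRNAs whose profile over the 24 libraries was most like that of each member were found by the root mean square (RMS) difference of log2 CPM, each profile centered on its own mean. The nearest of all to miR-23a was miR-27a (RMS difference 0.14), and the nearest to miR-23b was miR-27b (0.18). The median over other tested miRNAs was 0.80 for miR-23a and 1.23 for miR-23b. After its partner, miR-23a was nearest to mir-26a (0.19), mir-26b (0.20) and mir-101a (0.23), and miR-27a to mir-101a (0.15), mir-26a (0.17) and mir-26b (0.18). miR-23b was nearest to mir-182 (0.29), mir-200c (0.35) and mir-674 (0.35), and miR-27b to mir-182 (0.27), mir-148a (0.33) and mir-141 (0.35). mir-182, mir-200c and mir-141 are miRNAs of epithelial cells. The nearest to miR-24 were let-7b (0.25), let-7c (0.26) and mir-15a (0.28), and all of its cluster partners were farther (miR-27a at 0.41, miR-23a at 0.44, miR-27b at 0.94 and miR-23b at 1.02). These distances describe the same 24 libraries that share the tumor and normal contrast.

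Epithelial miRNAs moved with miR-23b and miR-27b. Of 10 listed epithelial miRNAs, 8 were over-expressed at each week. Of all tested miRNAs, 29.1%, 21.9%, 32.9% and 29.1% were over-expressed at weeks 6, 8, 10 and 12. Their summed level (CPM) was 15327 to 30652 in normal glands and 57013 to 98241 in tumors. Over the 10, the median log2 fold change was 1.77, 2.09, 1.98 and 2.21. mir-200b, which represses the mesenchymal regulators Zeb1 and Zeb2, was highest in this list (log2 fold change 2.30, 2.42, 2.53 and 2.88 at weeks 6, 8, 10 and 12), and mir-203, a miRNA of stratified epithelium, was lowest and under-expressed at week 12 alone (-1.87, edgeR adjusted p = 0.0390). The part of the epithelial share in the rise of miR-23b and miR-27b was not tested.

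Fibroblast, smooth muscle, myoepithelial and endothelial miRNAs were lower in tumor at every week. The fold changes of miR-23a and miR-27a were also below 0 at every week, but passed at weeks 10 and 12 only. Of all tested miRNAs, 29.5%, 13.5%, 27.4% and 21.5% were under-expressed at weeks 6, 8, 10 and 12. All 3 fibroblast miRNAs were under-expressed at each week, with sums (CPM) of 12658 to 19882 in normal glands and 4179 to 8040 in tumors. mir-199b was the lowest of them and mir-214 the least changed (log2 fold change -1.62 and -1.08 at week 12). Both smooth muscle and myoepithelial miRNAs, mir-143 and mir-145, were under-expressed at each week, with sums (CPM) of 144030 to 256187 in normal glands and 64714 to 129098 in tumors. The endothelial mir-126 was under-expressed at each week, with log2 fold changes of -0.67, -1.46, -1.39 and -1.57. The part of these cells in the levels of miR-23a and miR-27a was not tested.

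Of 3 leukocyte miRNAs tested, 1 was under-expressed at each week, mir-150 of mature lymphocytes (-0.77, -2.29, -2.66 and -2.58), and mir-155 was the highest (0.23, 0.46, 0.19 and -0.24, which did not pass). The myeloid mir-223 is listed at 0 in all libraries, and no level was read from it. Of 3 erythroid miRNAs, 1, 0, 1 and 3 were under-expressed, with mir-451 at -1.38 and mir-144 at -1.15 at week 12. Of 3 skeletal muscle miRNAs tested, 0, 1, 0 and 3 were under-expressed, with mir-1 at -7.37 and mir-133a at -6.08 at week 12, where 1 normal library held 89335 CPM of them. Of 3 miRNAs linked to adipocytes, 1, 0, 0 and 0 were over-expressed and 0, 0, 1 and 1 under-expressed. The under-expressed counts of these lists stand beside 29.5%, 13.5%, 27.4% and 21.5% of all tested miRNAs, and the over-expressed beside 29.1%, 21.9%, 32.9% and 29.1%. In that list mir-193b was highest (0.68, 0.06, 0.32 and 0.29) and mir-378 lowest (-0.62, -1.34, -1.21 and -1.72).

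Other miRNAs of the processes in which these clusters are studied moved in both directions. Of 13 tested miRNAs of angiogenesis, 7, 5, 8 and 7 were over-expressed and 3, 3, 5 and 4 under-expressed at weeks 6, 8, 10 and 12, with a median log2 fold change of 1.12, 1.01, 0.88 and 0.79. mir-18a, of the miR-17~92 cluster, was highest (1.61, 1.68, 2.03 and 2.49, of which the week 8 value did not pass) and mir-130a was lowest (-1.32, -1.74, -1.86 and -1.76). mir-221 and mir-222 of this list are likewise listed at 0 in all libraries. Of 12 tested miRNAs of adipogenesis, 3, 1, 2 and 1 were over-expressed and 3, 3, 4 and 4 under-expressed, with a median of -0.07, -0.74, -0.56 and -0.22. In that list mir-130b was highest (1.22, 1.67, 1.21 and 1.19) and mir-130a, which it shares with the angiogenesis list, was lowest. Both miR-130 miRNAs, which like miR-27 target Pparg, were thus called at every week in opposite directions. The shares called in each list are to be read against 58.6%, 35.4%, 60.3% and 50.6% of all tested miRNAs called in either direction.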

How the data were processed

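Small RNA libraries of mammary tumors and normal mammary glands were sequenced on a HiSeq2500 after TruSeq small RNA preparation. The authors removed barcode and adaptor, aligned reads of 17 to 27 bases with Bowtie, counted reads overlapping miRBase miRNAs and deposited the raw counts per miRNA, without normalization and without separating the 5p and 3p arms. Their text names mm10 and the labels mm9. The treatment of reads with several alignments is not given in the sources used here. This touches every miR-24-3p read, which matches both loci, so the level of mir-24 and its ratios depend on it. It also touches reads of 17 and 18 bases shared by miR-27a and miR-27b. The paper gives no mismatch setting for Bowtie. If 1 mismatch was allowed, longer reads of miR-27a and miR-27b could match both. Reads shared by miR-23a and miR-23b were not assessed.

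Here, entries were filtered with filterByExpr and tested with edgeR 4.0.16 in R 4.3.3 (TMM, quasi-likelihood test, Benjamini-Hochberg adjustment, threshold 0.05), by week, and in a fit of all 24 libraries for interactions and age. SE is the log2 fold change divided by the square root of F. Ratios used a pseudocount of 0.5 counts and exact permutation tests within weeks. CPM were scaled by TMM over all libraries. The scripts were tested on simulated data. The floor of 3 counts came to 0.763 to 2.91 CPM per library before TMM, and it covers counting error only, since amplified reads are not independent molecules. Groups, lanes and replicate numbers came from the labels. Lanes 1 and 2 both held libraries of every group. Alternatives used DESeq2 1.42.0, other scaling, other filters, a replicate block, the lane and left-out replicates.

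The members and lists were chosen with earlier results of these data known. Named miRNAs were the 5 members, the 3 other miRNAs nearest to each, and the highest and lowest of each list by mean log2 fold change. MiRNAs named beyond this (mir-133b, mir-138, mir-221, mir-222 and mir-223) were chosen after their values were seen.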

Additional observations from a re-analysis of the deposited data

How the results depend on the processing

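The count of members over-expressed in tumor was 2 at every week under every alternative and left-out replicate, the count under-expressed at week 8 and the count varying between weeks did not change, and no direction of a called value reversed. The differences in log2 ratio stayed past the threshold throughout: leaving out replicates gave 2.44 to 2.65 for miR-23b to miR-23a and 2.30 to 2.45 for miR-27b to miR-27a. With library sizes in place of TMM, the members under-expressed were 1 at week 6 (miR-23a) and 0 at week 12, and the members changed with age in normal glands were 0. That scaling moved the median log2 fold change of all miRNAs by week from -0.12 to -0.26 (week 6), -0.09 to -0.22 (week 8) and -0.19 to -0.01 (week 12). With at least 10 counts required in every library, the members changed from week 6 to week 12 were 0 in tumors and 1 in normal glands. With the lane as a covariate, the members under-expressed at week 12 were 0. Those changed from week 6 to week 12 were then 2 in tumors and 3 in normal glands, as in the main fit. Leaving out replicates gave 0 to 1 members under-expressed at week 6 and 0 to 2 at both week 10 and week 12. The members changed from week 6 to week 12 were then 0 to 3 in tumors and 0 to 2 in normal glands.

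Tumor and normal libraries with the same week and number tended to deviate together (mean correlation of deviations 0.41, against -0.18 for other pairs, and 17 of 24 libraries correlated best with their own number). The correlation was over 0.1 in 10 of 12 pairs (lowest 0.03, highest 0.82), and no source states a pairing, so the block was kept as an alternative. With the replicate block, the members under-expressed at week 12 were 1 (miR-23a, at -0.67, had an edgeR adjusted p of 0.0583). Both ratios kept their differences of 2.56 and 2.39 (exact permutation p = 0.000488, the smallest that this test allows).

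Over all tested miRNAs, 52 were over-expressed at week 8, 33 with library sizes only and 32 without tumor replicate 1. Those under-expressed at week 8 were 32, against 50 with the Wald test of DESeq2, 52 in a single fit of all libraries, 68 with the replicate block, and 18 and 21 without tumor replicate 1 or 2. At week 6, 69 over- and 70 under-expressed became 44 and 45 without tumor replicate 1, and the latter became 30 and 41 without tumor replicate 2 or 3. Those under-expressed went from 65 to 39 and 37 at week 10 without tumor replicate 1 or 2, and from 51 to 29 and 24 at week 12 without tumor replicate 2 or 3. The count changed from week 6 to week 12 in tumors went from 18 to 10 with no filter and to between 0 and 29 with replicates left out. In normal glands it went from 50 to 28 with at least 10 counts and to 20 without normal replicate 3.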
